A study of Mus musculus with 2 samples.

Results

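The respiratory chain genes of mouse neutrophils were followed here, complex by complex, in cells treated with tumor exosomes and in cells treated with PBS. Members were taken by name, as the features whose symbols belong to the subunit families Ndufa, Ndufb, Ndufc, Ndufs and Ndufv (complex I), Sdha to Sdhd (complex II), Uqcr and Cyc1 (complex III), Cox4 to Cox8 (complex IV) and Atp5 (complex V). Of 35522 features listed, 87 matched, and 77 of them had an RPKM of at least 0.25 in both libraries. RPKM is a count of reads scaled by transcript length and by the mapped reads of the library, so it is a level per length. The complexes held 36 of 37 matching genes (I), 4 of 4 (II), 9 of 9 (III), 11 of 18 (IV) and 17 of 19 (V) after this filter, which 9698 features passed in all.

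The neutrophils came from the bone marrow of Balb/C mice, which the study's methods give as 5 to 8 weeks old, and were sorted as CD11b+ cells with high Ly6G and low Ly6C. Both cultures were kept for 3 days in medium with GM-CSF at 10 ng/ml, a growth factor of myeloid cells. The PBS group received PBS alone, and the exosome group received 20 μg/ml of exosomes, small vesicles shed by SDCSCs. SDCSCs are sphere-derived cancer stem cells, here spheres grown from the mouse colon carcinoma line CT26. Each group was 1 library of mRNA, so no spread between replicates is known, no test was possible, and all values describe these 2 libraries.

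The respiratory chain sits in the inner mitochondrial membrane. Complexes I and II pass electrons from NADH and succinate to coenzyme Q, complex III passes them to cytochrome c, and complex IV passes them to oxygen. Complexes I, III and IV pump protons, and complex V, the ATP synthase, lets the protons flow back and makes ATP. Most subunits are encoded in the nucleus and a small core in mitochondrial DNA. Mature neutrophils have few mitochondria and live mainly on glycolysis.

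Every respiratory chain transcript kept was higher in the exosome library than in the PBS library, as were 7079 of all 9698 genes kept. The ratio of exosome to PBS RPKM ran from 1.02 to 7.54 with a median of 2.03 (median log2 ratio 1.02). With a 2-fold ratio as the limit, 42 of 77 members (54.5%) were up and 0 were down, and 7 were up at least 4-fold. Among all genes kept, 31.5% were up and 5.62% were down by the same limit, and the median log2 ratio was 0.53. Of the 77 members, 62 lay above that median. The median RPKM of the members was 15.9 in PBS and 32.5 with exosomes. Their summed RPKM was 1801 and 3267, which was 0.502% and 0.942% of the summed RPKM of the libraries.

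The deposited values were not centred on each other, and the count of members up depended on this. With the median of all genes taken out, 21 members were up and 0 were down, against 1634 genes up and 1282 down among all genes kept. The members also had short transcripts, with a median length of 861 bases against 2971 for all genes kept. Over all genes kept, transcripts of 500 to 1000 bases had the highest median ratio of the ranges of length compared. There the median log2 ratio was 0.80 for all genes and 1.01 for the 40 members of that length, with 42.8% of all genes and 52.5% of members up. With the median of genes of like length taken out, 19 members were up and 0 were down, and 54 of 77 were still above 0.

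**Figure D1:**
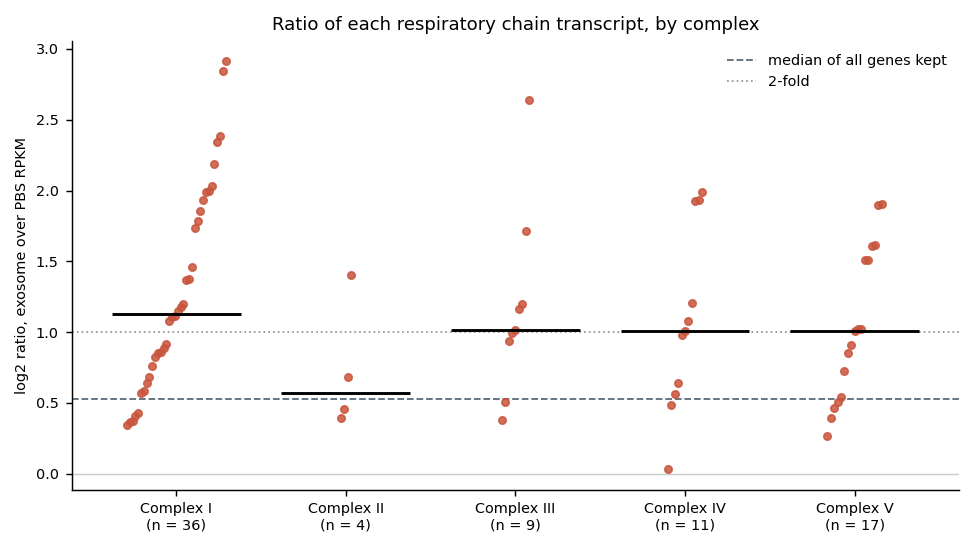
The log2 ratio of exosome over PBS RPKM (vertical axis) is plotted for each of the 77 members, 1 point per gene, by complex (horizontal axis, points of a complex spread out in order of ratio). Black bars are complex medians, the dashed line is the median of all 9698 genes kept and the dotted line is a 2-fold ratio. All points lie above 0, and the complexes overlap over most of their ranges.

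Many of the smallest RPKM values were taken to stand for single reads. The commonest total of mapped reads they implied was about 66.0 M (M for mega) in the PBS library and 79.1 M in the exosome library. Of the features with a length and under 0.01 RPKM, 236 of 918 in PBS and 272 of 1064 with exosomes gave that total. Counting intervals (95%, exact Clopper-Pearson, on estimated reads) cover counting error only. They lay above a ratio of 1 for 75 of 77 members, above 2 for 34 and below 2 for 31, and included 2 for 12, of which 8 had been counted as up. Markers of the sorted cells and of other blood cells moved between the libraries as well. The summed RPKM of 7 neutrophil markers was 79334 in PBS and 29515 with exosomes, with 6 of 7 down (S100a8 from 32823 to 14382 and Ly6g from 287 to 56.2 among them). That of 10 macrophage or monocyte markers was 349 and 497, and of the 7 kept, 4 were up and 1 was down. Emr1, which encodes the macrophage antigen F4/80, rose from 20.9 to 152 RPKM and Csf1r from 58.1 to 153, while Ly6c2 fell from 184 to 37.1. Of those genes outside the filter or near it, C1qa was at 0.18 and 1.42 RPKM, C1qb at 0.30 and 2.30, C1qc at 0.27 and 3.79, and Mertk at 0.04 and 0.48. B cell markers summed to 70.6 and 44.6. Dendritic, T or NK cell and erythroid markers each summed to under 1.6 RPKM in both libraries, eosinophil, basophil or mast cell markers to 7 and 4.35, and carcinoma markers to 0.59 and 0.21, with Krt8 and Cldn4 at 0 in both. The part of these shifts in the ratios of the respiratory chain genes was not tested. In such bulk RNA fewer cells of a type and less RNA per cell cannot be told apart.

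Promoter sequence was compared because members of every complex moved in the same direction, which most genes kept also did. RefSeq gave at least 1 window, from 250 bases before to 50 bases after a start (GRCm38), for 65 of the 77 members. Among those not matched were Atp5a1, Cox4i1, Cox6c, Cyc1, Ndufa2, Ndufb9, Ndufs1, Sdhc, Uqcrb, Uqcrc2 and Uqcrq. Nuclear respiratory factor 1 (NRF1), GABP (also called NRF2) and YY1 are the transcription factors best known for binding promoters of such genes, and their core letters were searched on both strands: GCGCANGCG for NRF1, CCGGAAG for GABP and AAGATGGCG for YY1. Adjacent NRF1 matches overlap, since the letters are nearly the same on both strands. The 100 bases before the start follow for the 2 members with the highest ratios, the member with the lowest, and a pair with GABP letters, in lower case with matches in capitals and 5′ to 3′ on the gene's strand.
Ndufa11 (chr17:56717662-56717761, plus strand): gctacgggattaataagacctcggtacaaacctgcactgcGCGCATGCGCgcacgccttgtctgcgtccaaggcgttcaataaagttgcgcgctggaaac
Ndufc2 (chr7:97399903-97400002, plus strand): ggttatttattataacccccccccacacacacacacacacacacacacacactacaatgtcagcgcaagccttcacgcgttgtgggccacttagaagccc
Cox6a1 (chr5:115348959-115349058, minus strand): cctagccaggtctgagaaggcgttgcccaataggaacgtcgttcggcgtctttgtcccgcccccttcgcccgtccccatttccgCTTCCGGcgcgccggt
Uqcrh (chr4:116075071-116075170, minus strand): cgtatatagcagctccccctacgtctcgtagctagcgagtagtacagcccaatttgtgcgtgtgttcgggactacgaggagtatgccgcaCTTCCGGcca
Cox7a2l (chr17:83514334-83514433, minus strand): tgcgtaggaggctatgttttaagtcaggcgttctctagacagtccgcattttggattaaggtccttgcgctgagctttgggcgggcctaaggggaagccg
Ndufa11, at a ratio of 7.54, had overlapping NRF1 letters. Ndufc2, at 7.17, and Cox7a2l, at 1.02, had none of the 3 sets of letters in the 250 bases before the start. Cox6a1 and Uqcrh both carried the GABP letters close to the start and had ratios of 2.11 and 1.30, and Cox6a1 also had NRF1 letters farther upstream. Counts of letters are per gene: a gene with several starts had several windows and counted if any of them held the letters. NRF1 letters were found in 20 of 65 members (30.8%), in 7.03% of all genes with a window and in 16.4% of genes kept. GABP letters were in 16 (24.6%), against 9.93% and 22.4%, and YY1 letters were in 8 (12.3%), against 1.64% and 4.14%. The CCAAT box, a common promoter element, was in 43.1% of members and in 41.1% of all genes with a window. Of the 65 members, 36 (55.4%) held letters of NRF1, GABP or YY1, against 16.5% of all genes with a window and 37.2% of genes kept. The median log2 ratio of members was 1.35 with NRF1 letters and 0.98 without, 0.91 with GABP letters and 1.15 without, and 1.10 with YY1 letters and 1.01 without. For the CCAAT box it was 0.84 with and 1.16 without. These differences were not tested. A match is a stretch of letters and does not show that the factor bound there.

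Complex I, which oxidises NADH, held most of the largest ratios. Of its 36 members kept, 21 (58.3%) were up, 6 of them at least 4-fold, and the median ratio was 2.19 (median log2 ratio 1.13). Its summed RPKM was 510 in PBS and 963 with exosomes. The RPKM of its members ran from 0.41 to 57.8 in PBS and from 3.09 to 80.2 with exosomes.

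The 4 highest ratios of complex I belonged to accessory subunits with low values in PBS. Ndufa11 (chr17:56717767-56722141, plus strand, GRCm38), a subunit of the membrane arm, rose 7.54-fold, from 0.41 to 3.09 RPKM (counting interval 4.32 to 13.6). Its exons overlap those of Vmac on the other strand. Ndufc2 (chr7:97400003-97407802, plus strand), also of the membrane arm, rose 7.17-fold (5.53 to 9.48), from 1.40 to 10.0 RPKM, with no overlapping gene and no near-identical pseudogene. Ndufa5, of the arm that reaches into the matrix, rose from 0.97 to 5.06 RPKM and Ndufa9, which lies where the arms meet, from 1.81 to 9.19 RPKM. Ndufc1 and Ndufb3 also passed 4-fold, at 3.99 to 18.1 RPKM and 7.44 to 30.4 RPKM. None of these 6 genes encodes a subunit that carries electrons.

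The transcripts with the lowest ratios of complex I, named next, all stood above the median PBS level of the complex, 9.34 RPKM. Ndufa13, also called Grim19, was at 20.6 RPKM in PBS and 26.1 with exosomes, a ratio of 1.27 (1.19 to 1.35). Ndufb9 was at 47.8 and 61.4 RPKM, Ndufs1 at 11.7 and 15.2, and Ndufb11 at 16.8 and 22.3, with ratios of 1.29, 1.30 and 1.32. The transcripts of this complex with the highest levels in PBS, Ndufa3 and Ndufa7, were at 57.8 and 53.6 RPKM there and at 77.7 and 80.2 with exosomes. Neither reached 2-fold.

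The nuclear core subunits, which hold the flavin and the iron-sulfur clusters or the quinone site, moved unequally. Ndufs3 rose from 5.40 to 18.0 RPKM (ratio 3.32) and Ndufv1 from 7.28 to 15.8 (2.16). Ndufv2 was 1.85-fold higher, at 7.69 and 14.2 RPKM, Ndufs8 1.77-fold, at 9.92 and 17.5, and Ndufs7 1.48-fold, at 20.4 and 30.2. Ndufs1, given above, also carries iron-sulfur clusters. Of the 29 members of complex I outside this core, 18 were up, with a median log2 ratio of 1.2. By name family, 7 of 10 Ndufb, 7 of 13 Ndufa, 2 of 2 Ndufc, 4 of 8 Ndufs and 1 of 3 Ndufv genes were up. These differences between families were not tested.

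**Figure D2:**
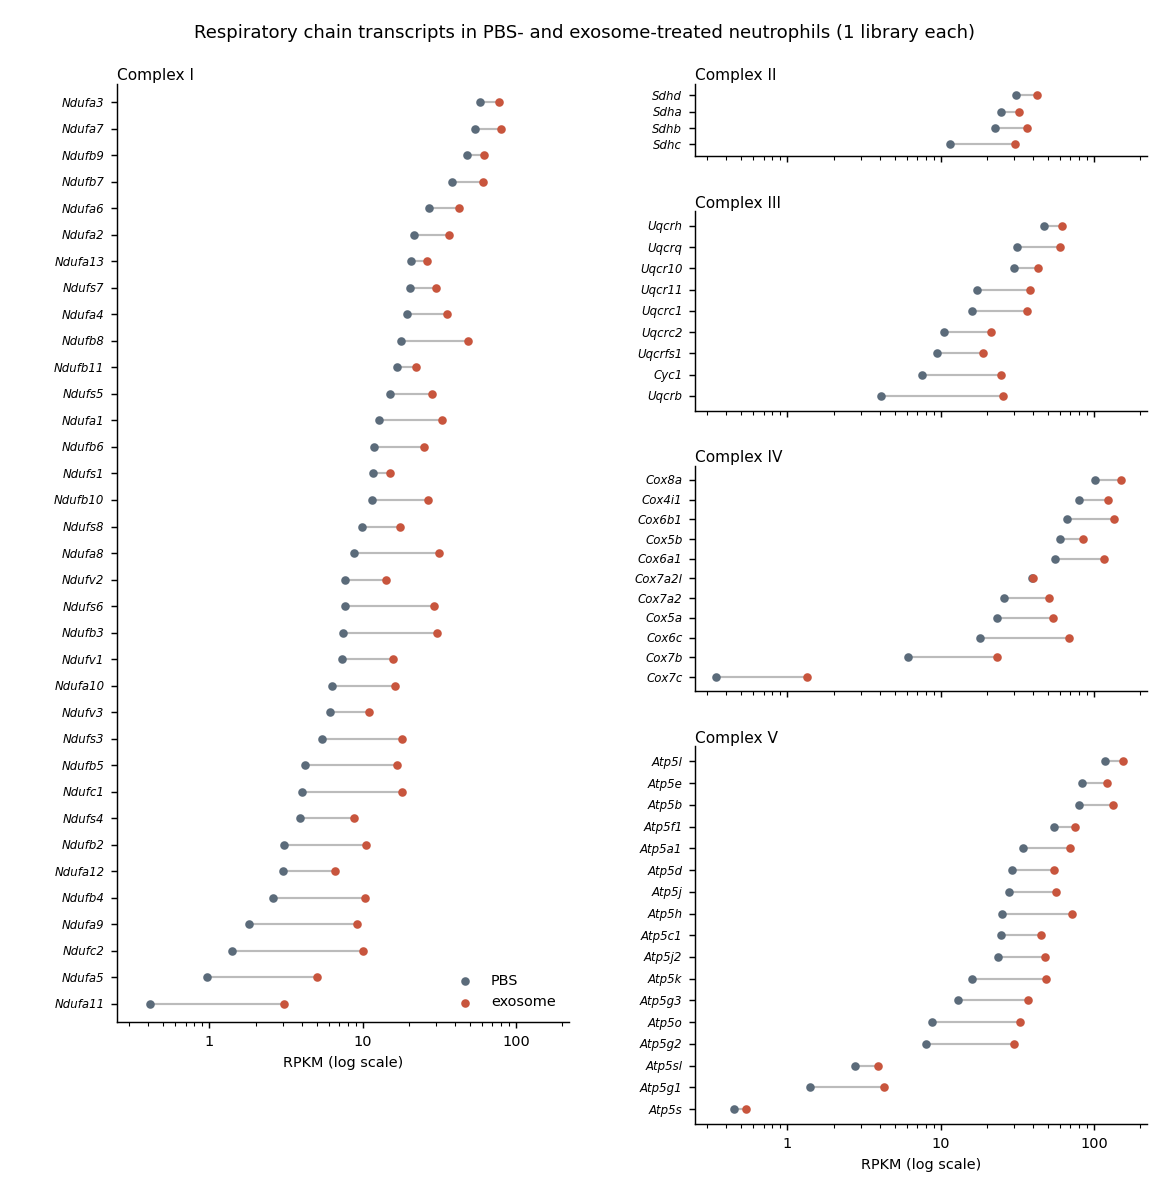
RPKM on a log axis (horizontal) is drawn for 76 of the 77 members (vertical, in order of the PBS value within each complex), with PBS in grey, exosome in red and a line joining the pair from 1 library each. Every red point lies at or to the right of its grey point, and the lines are longest at the low end of complex I, from 0.41 to 3.09 RPKM for Ndufa11.

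Complex II, succinate dehydrogenase, is shared between the respiratory chain and the citric acid cycle and is made only from nuclear genes. It had the lowest median ratio, 1.49 (median log2 ratio 0.57), close to the median of all genes, with 1 of 4 members up. Sdhc (chr1:171127165-171150603, minus strand), a membrane anchor, rose from 11.5 to 30.3 RPKM, a ratio of 2.64 (2.53 to 2.77). The other anchor, Sdhd, was at 31.1 and 42.7 RPKM. The catalytic subunits were at 24.8 and 32.5 RPKM (Sdha, which holds the flavin, ratio 1.31) and at 22.6 and 36.3 RPKM (Sdhb, which holds the iron-sulfur clusters, ratio 1.61). The subunits stood between 11.5 and 31.1 RPKM in PBS and between 30.3 and 42.7 with exosomes, and the SD of their log2 levels was 0.62 and 0.21.

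Complex III, the cytochrome bc1 complex, had 5 of 9 members up and a median ratio of 2.02. Uqcrb (chr13:66900617-66905378, minus strand), which takes part in quinone binding, rose from 4.10 to 25.5 RPKM, a ratio of 6.22 (5.22 to 7.44), the only member outside complex I to pass 4-fold. It has 3 near-identical pseudogenes, and its exons overlap Gm10767 on the other strand. Cyc1, which encodes cytochrome c1, the subunit that hands electrons to cytochrome c, rose from 7.53 to 24.7 RPKM (ratio 3.28). The core subunit genes Uqcrc1 and Uqcrc2 rose from 15.9 to 36.4 and from 10.5 to 21.2 RPKM, and the small subunit gene Uqcr11 from 17.1 to 38.4. Uqcrfs1, which encodes the Rieske iron-sulfur protein, was at 9.52 and 19.0 RPKM, a ratio of 1.99 whose interval of 1.84 to 2.16 includes 2. Uqcrq was at 31.5 and 60.3 RPKM (ratio 1.91), Uqcr10 at 30.2 and 42.8 (1.42) and Uqcrh, the hinge protein, at 47.2 and 61.4 (1.30).

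Complex IV, cytochrome c oxidase, had 6 of 11 members up and a median ratio of 2.01, with a wide spread of levels. Cox7c (chr13:86044816-86046904, minus strand) rose 3.97-fold, from 0.34 to 1.35 RPKM. Only about 12 reads stood behind the PBS value, and the interval was 2.14 to 8.24. It has 3 near-identical pseudogenes. Cox7b rose from 6.10 to 23.3 RPKM and Cox6c from 18.0 to 68.4, both at about 3.8-fold, and Cox5a, a matrix-side subunit next to the core, rose from 23.3 to 53.9 RPKM (ratio 2.31). Cox6a1 and Cox6b1 rose from 55.3 to 117 and from 66.8 to 134 RPKM, close to the 2-fold limit. The most abundant members in PBS, Cox8a at 101 RPKM and Cox4i1 at 79.5, were at 149 and 124 with exosomes, 1.47-fold and 1.56-fold higher. Cox5b was 1.40-fold higher, at 60.1 and 84.3 RPKM.

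Cox7a2l (chr17:83501918-83517330, minus strand) had the lowest ratio of all 77 members. It was at 39.4 RPKM in PBS and 40.3 with exosomes, a ratio of 1.02 with an interval of 0.973 to 1.07. Its product is known to help join complexes III and IV into supercomplexes. Its relative Cox7a2, a regular subunit, was 1.97-fold higher, at 25.9 and 50.9 RPKM (interval 1.84 to 2.11). Of the summed RPKM of Cox7a1, Cox7a2 and Cox7a2l, Cox7a2 therefore held 39.5% in PBS and 55.4% with exosomes, and Cox7a2l 60.3% and 43.8%.

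Subunit forms known from heart and muscle, lung or testis were low or at 0. Cox7a1 was at 0.12 and 0.66 RPKM, Cox6b2 at 0.18 and 0.25, Cox6a2 at 0.07 and 0.10, and Cox4i2 at 0.02 and 0.10. Cox7b2, Cox8b, Cox8c and Ndufa4l2 were listed at 0 in both libraries, as were Atp5l-ps1 and Atp5l2, which GENCODE gives as processed pseudogenes. These 10 features are the matching features below the filter. Just inside it were Cox7c, Ndufa11 and Atp5s. The common forms Cox4i1, Cox6a1 and Cox6b1 held 99.7% or more of their groups in both libraries. Ndufa4, placed in complex I by name alone, was at 19.5 and 35.3 RPKM (ratio 1.81). Without Ndufa4 and Ndufa4l2 the median log2 ratio of complex I was 1.15 over 35 genes, against 1.13 with Ndufa4.

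Complex V, the ATP synthase, had 9 of 17 members up and a median ratio of 2.01. The genes of its c ring, the rotor through which protons pass, were all up. Atp5g1, Atp5g2 and Atp5g3 encode the same mature protein and rose from 1.40 to 4.29, from 8.01 to 29.9 and from 12.95 to 36.8 RPKM. Their sum rose from 22.4 to 71.0 RPKM, a ratio of 3.18, and their shares of it were 6.26%, 35.8% and 57.9% in PBS and 6.04%, 42.1% and 51.9% with exosomes. Atp5g1 and Atp5g2 have near-identical pseudogenes.

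The 5 genes of the catalytic head, Atp5a1, Atp5b, Atp5c1, Atp5d and Atp5e, had ratios from 1.46 to 2.01, with 1 of 5 up and a median log2 ratio of 0.86. Atp5a1, the alpha subunit, was at 34.5 and 69.3 RPKM, a ratio of 2.01 whose interval of 1.95 to 2.07 includes 2. Atp5e, the epsilon subunit, was at 83.5 and 122 RPKM, and Atp5b, the catalytic beta subunit, at 80.2 and 133 (ratio 1.65). Of the 7 stalk and membrane members, 5 were up. Atp5o, which links head and stalk, rose from 8.78 to 32.9 RPKM (ratio 3.74), Atp5k, the membrane subunit e, from 15.9 to 48.6 (3.05) and Atp5h, subunit d of the stalk, from 25.1 to 71.4 (2.85). Atp5l, the membrane subunit g and the most abundant member in PBS at 118 RPKM, was at 155 with exosomes (ratio 1.31) and has 9 near-identical pseudogenes. Atp5f1, subunit b of the stalk, was at 54.7 and 75.4 RPKM (1.38). Atp5s and Atp5sl match by name only and are not taken as subunits, but both are counted among the 17 members. They were at 0.45 and 0.54 RPKM (ratio 1.2, interval 0.799 to 1.80) and at 2.75 and 3.91 RPKM (1.42). Without them the median log2 ratio of complex V was 1.02 over 15 genes, against 1.01 with them.

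The complex medians of the log2 ratio spanned 0.56, from complex II to complex I, and the ranges of all complexes overlapped. Complex II was lowest under each of the 9 settings in which the order was compared, the reported values among them. Removing the median or trimmed mean and TPM shift every log2 ratio alike, so they could not change the order. Of the settings that could, complex I was highest with the other filters and the pseudocount. Complex III was highest with genes of like length and complex IV with genes of like level taken as the reference. The ratios of summed RPKM, in which abundant members weigh most, were 1.89 for complex I, 1.58 for II, 1.90 for III, 1.78 for IV and 1.79 for V.

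Within complexes I to IV the levels lay closer together in the exosome library. The SD of log2 RPKM over the 77 members was 1.84 in PBS and 1.49 with exosomes. Over all genes kept it was 2.49 and 2.24, and it was also lower with exosomes in the cytosolic ribosome (1.69 and 1.48), the mitochondrial ribosome (1.71 and 1.29) and the proteasome (1.48 and 1.31). It was 1.62 and 1.08 in complex I, 1.13 and 0.62 in complex III, 2.34 and 1.92 in complex IV, and 2.14 and 2.12 in complex V. Put another way, members that stood low had the larger ratios. The log2 ratio correlated with the mean log2 RPKM at Pearson r = -0.54 and Spearman rho = -0.56 over 77 genes. These genes share the 2 libraries and are not independent. The Pearson value is fixed by the SDs of the levels and of the log2 ratio. It restates the narrower spread and is not a second observation. Over all 9698 genes rho was -0.28. At a mean of less than 1 RPKM 1 of 2 members was up against 31.7% of all genes. From 1 to 5 RPKM 4 of 5 members were up against 50.2%, and from 5 to 10 RPKM 5 of 6 against 34.6%. From 10 to 20 RPKM 14 of 19 members (73.7%) were up against 19.9% of all genes, and from 20 to 50 RPKM 15 of 31 (48.4%) against 16.6%. At 50 RPKM or more 3 of 14 members (21.4%) were up against 12.5%. The order of the genes was largely kept, with a Spearman rho of 0.94 between the log2 levels of the libraries.

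**Figure D3:**
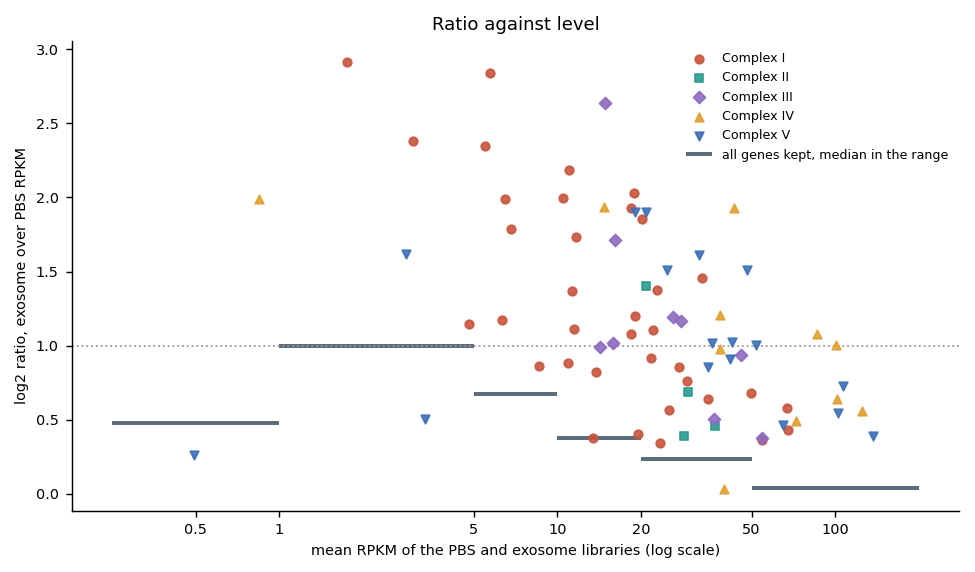
The log2 ratio of exosome over PBS RPKM (vertical axis) is plotted against the mean RPKM of both libraries (horizontal, log scale), 1 point per member, with symbols by complex. Grey bars give the median of all genes kept in the same range of mean RPKM, which falls from 1 at 1 to 5 RPKM to 0.04 at 50 RPKM or more, and most members lie above the bar of their range.

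The values of several members rest on reads that other features could share. Near-identical pseudogenes, of at least 95% identity over at least 100 bases, were found for 21 members, of which 15 were up, with a median log2 ratio of 1.62 and a median PBS level of 8.78 RPKM. Among the 56 without such a pseudogene 27 were up, with a median of 0.99 and a PBS level of 18.6 RPKM. How reads with several matches were assigned is not given in the sources used here. Exons on the opposite strand overlapped 24 members, of which 15 were up (median log2 ratio 1.05), against 27 of 53 without such an overlap (1.01).

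The 13 protein genes of mitochondrial DNA, among them ND1 to ND6, CYTB, COX1 to COX3, ATP6 and ATP8, were listed at 0 in both libraries. These subunits form the centres of complexes I, III, IV and V, and their transcripts are as a rule abundant in mouse cells, so no level can be read from these entries. Of 3 nuclear subunit or regulator genes that the names do not catch, Ndufab1 (the acyl carrier protein of complex I) rose from 3.73 to 11.7 RPKM and Usmg5 (a small ATP synthase protein) from 34.3 to 74.0. Atpif1, the inhibitor of the ATP synthase, was at 16.8 and 21.3 RPKM.

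Assembly factors, which build the complexes and leave them, had group medians of 1.64 to 1.96 RPKM in PBS, though single factors such as Cox17, at 53.3 RPKM in PBS and 83.2 with exosomes, stood high. Of all genes kept, 31.5% were up and 5.62% were down, and of those with a mean of 1 to 5 RPKM 50.2% were up. Of 9 kept for complex I, 7 were up and 0 were down (median log2 ratio 1.46), led by Ecsit from 0.36 to 2.23 RPKM, Acad9 from 0.58 to 3.05 and Ndufaf2 from 0.29 to 1.32. For complexes II and III 2 of 5 were up (median 0.27). Sdhaf1, which helps insert iron-sulfur clusters into Sdhb, rose from 1.87 to 15.8 RPKM, a ratio of 8.45 (interval of the log2 ratio 2.91 to 3.25). That ratio was higher than the ratio of any respiratory chain member, while Sdhb itself was 1.61-fold higher. For complex IV 7 of 12 were up (median 1.37), with Lrpprc, which stabilises mitochondrial mRNA, from 0.86 to 4.32 RPKM. For complex V 2 of 3 were up, with Atpaf1 from 0.26 to 1.16 RPKM.

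Among 19 mobile carriers and coenzyme Q genes kept, 8 were up and 1 was down (median log2 ratio 0.78). Of all genes kept 31.5% were up, with 50.2% up at a mean of 1 to 5 RPKM and 34.6% at 5 to 10 RPKM. Cycs, which encodes cytochrome c, rose from 3.66 to 8.62 RPKM. Slc25a5, which exchanges ADP for ATP across the inner membrane, was at 47.0 and 84.4 RPKM. Etfa and Etfb, the subunits of the flavoprotein that brings electrons from fatty acid oxidation, rose from 1.56 to 7.43 and from 3.51 to 16.1 RPKM. Of the coenzyme Q synthesis genes, Coq2 and Coq5 rose from 1.88 to 8.70 and from 1.84 to 7.46 RPKM, whereas Coq4 fell from 6.83 to 1.93. Of 18 citric acid cycle and pyruvate dehydrogenase genes, 9 were up and 0 were down (median 1.05), with the largest ratio, 4.82, for Pdhx and the smallest, 1.23, for Ogdh.

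Regulators of mitochondrial gene expression had 6 of 11 kept up and 0 down, against 31.5% and 5.62% of all genes kept. At a mean of 1 to 5 RPKM 50.2% of all genes were up. Those up included genes that act on mitochondrial DNA or on the RNA made from it. Tfam, which packs and transcribes the DNA, rose from 0.87 to 2.87 RPKM, and Polrmt, its RNA polymerase, from 0.68 to 2.78. Tfb1m and Tfb2m rose from 0.27 to 1.31 and from 2.12 to 4.88 RPKM. The coactivator gene Pprc1 rose from 0.45 to 2.52 RPKM and Gabpa from 7.69 to 17.0. The exons of Gabpa overlap those of Atp5j on the other strand, so reads of the pair, with Atp5j at 27.9 and 56.8 RPKM, cannot be told apart there without strand. Nrf1 was at 8.52 and 9.40 RPKM, Yy1 at 53.2 and 52.3, Gabpb1 at 19.4 and 17.2, Esrra at 16.03 and 21.5, and Mterf at 5.66 and 4.78. Ppargc1a and Ppargc1b, the coactivators best known for driving mitochondrial growth, were at 0.06 RPKM or less in both libraries.

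**Figure D4:**
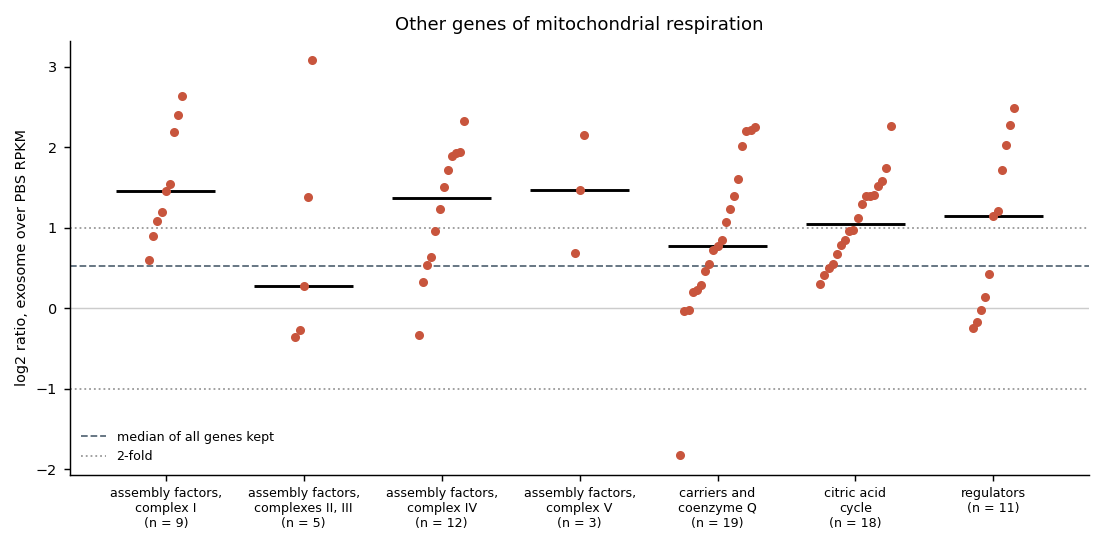
The log2 ratio of exosome over PBS RPKM (vertical axis) is plotted for genes kept of 7 other groups of mitochondrial respiration (horizontal axis), 1 point per gene, with black bars for group medians, a dashed line for the median of all genes kept and dotted lines at 2-fold. The highest point, in the group of complexes II and III, is Sdhaf1, and the only point below the lower 2-fold line is Coq4.

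Other large protein machines were taken by name for comparison, with values set side by side. Of 75 mitochondrial ribosomal protein genes 55 (73.3%) were up, with a median log2 ratio of 1.67. Of 38 proteasome genes 17 (44.7%) were up (0.99), and of 79 cytosolic ribosomal protein genes 32 (40.5%) were up (0.89). None of these 3 groups had a gene down at least 2-fold. Of all genes kept, 31.5% were up and 5.62% were down. The respiratory chain, at 54.5% and 1.02, stood between them, at a median PBS level of 15.9 RPKM, against 2.04 for the mitochondrial ribosome, 14.3 for the proteasome and 63.7 for the cytosolic ribosome.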

How the data were processed

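RNA sequencing data, 1 library each, of PBS-treated and exosome-treated neutrophils (TruSeq mRNA kit) were used as deposited. The authors trimmed reads at a Phred score of 20, ran CLC Genomics Workbench, and deposited a single RPKM value for every feature in each library. The submitters' processing notes name mm10. The gene annotation, the strand setting and the handling of reads with several matches are not given in the sources used here. No further scaling was applied. A gene was kept at an RPKM of at least 0.25 in both libraries and counted as up or down at a 2-fold ratio, with no pseudocount.

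Lengths, positions and overlaps were taken from GENCODE M21 (longest transcript linked to RefSeq), near-identical copies from BLAST+ 2.17.0, and promoters from RefSeq. Mapped reads (66.0 M and 79.1 M) were estimated from values under 0.01 RPKM, and reads per gene from them, for counting intervals alone. Scripts (Python 3.11.15, scipy 1.17.1) were tested on simulated data. Alternatives were other centrings, TPM, other filters, a pseudocount of 1, a 4-fold limit and other memberships. The members and lists were chosen with earlier results of these data known.

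Genes named were the 4 highest and 4 lowest ratios and the 2 highest PBS levels of complexes with more than 6 members, all members of smaller ones, all members up at least 4-fold or below the filter, isoform groups and core subunits of complex I, of which 1 is not reported here. Of other lists, genes past 4-fold (or the highest and lowest ratio), all regulators, all mitochondrially encoded genes, Cycs and Slc25a5 were named. The remaining genes named were chosen after their values were seen.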

Additional observations from a re-analysis of the deposited data

How the results depend on the processing

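The number of members down at least 2-fold was 0 under every setting. TPM, the other filters and a pseudocount could not bring a reported ratio above 1 to below 1. Signs could change only under the 4 centrings. There 62 of 77 members stayed above 0 with the median of all genes removed, and 62 with a trimmed mean removed. Against genes of like level 74 did, and against genes of like length 54. With the median of all genes removed, 21 members were up and the median log2 ratio was 0.49 (complex I 0.60, II 0.044, III 0.49, IV 0.48, V 0.48), and with a trimmed mean removed 21 were up at 0.48 (0.59, 0.029, 0.47, 0.46 and 0.46 in the same order). Against genes of like level 27 were up at 0.77 (I 0.75, II 0.40, III 0.77, IV 0.996, V 0.74). Against genes of like length 19 were up at 0.32 (0.38, -0.11, 0.40, 0.27, 0.29), so the sign of complex II changed there. TPM gave 1.07 (1.18, 0.62, 1.06, 1.05, 1.05). A pseudocount of 1 gave 0.98 (I 1.02, II 0.55, III 0.95, IV 0.95, V 0.98). A 4-fold limit left 7 members up. Without isoforms of restricted range and Cox7a2l the median of complex IV was 1.04. Of all genes kept, 16.8%, 16.4%, 13.3% and 16.4% were up under the 4 centrings in the order given. Each centring lowers the members by construction, and whether most transcripts were in truth unchanged was not tested. Ratios of transcripts near 0.25 RPKM are limited by counts and by values rounded to 0.01. No paired analysis was possible because each group holds 1 library.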
